A study of Mus musculus with 6 samples.

Results

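Inside protein-coding genes, 1525 regions carried an H3K9me3 peak in both control libraries and in neither library of PHF8-depleted mouse neural stem cells (NSCs). They are called lost gene-body regions here. Peaks of the 4 libraries on chromosomes 1 to 19 were pooled and merged into 70705 regions, of which 3538 held a peak of both control libraries and of neither PHF8-depleted library. Of these, 2036 overlapped a protein-coding gene, 511 of them lay within 3 kb of a protein-coding transcription start site, and the remaining 1525 are described below. The members were therefore chosen by the presence of peaks in these same 4 libraries, and the difference between the groups at the members is a description and was not tested.

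NSCs were taken from the cerebral cortex of C57BL/6J mouse embryos at E12.5 and infected with a lentivirus that carried either a scramble shRNA, the control called shCTR, or one that targets PHF8, called shPHF8, so that both groups went through infection and grew in the same medium with EGF and FGF. Each group had 2 libraries of H3K9me3 ChIP-seq, in which DNA bound to the marked histone is precipitated and sequenced, and the 2 inputs were not analysed here. Paired values below are for replicates 1 and 2 of a group, in that order. The sources used here do not say whether the replicates were separate cultures, so the spread between them may be technical. The files hold peak positions only, so neither PHF8 itself nor markers of the cell type could be checked in them.

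H3K9me3 is a histone mark of silent chromatin, deposited by methyltransferases such as SUV39H1 and SETDB1 and bound by HP1 proteins. It is best known for silencing repeats and gene clusters, and within transcribed genes it has also been seen over introns and over exons of zinc finger genes. PHF8 is a demethylase that removes lower methylation states of the same lysine and of lysine 20 of histone H4, and mutations in it cause an X-linked intellectual disability.

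The lost regions as a whole are described further below, and the sequences here are examples from members picked as extremes. For each one, the 200 bp window with the most CpG dinucleotides inside the stretch covered by both shCTR libraries is printed from the plus strand of mm10 (GRCm38.p6, RefSeq), with CpG in capitals. The first set comes from the 5 intronic members among the 6 with the most bases covered in both shCTR libraries. They lay in Gm20388, a gene model that spans many others, Egfr, the receptor for EGF, Plxna2, a receptor for semaphorins, Ptdss1, a phosphatidylserine synthase, and Schip1.
Gm20388, chr8:121346201-121346400: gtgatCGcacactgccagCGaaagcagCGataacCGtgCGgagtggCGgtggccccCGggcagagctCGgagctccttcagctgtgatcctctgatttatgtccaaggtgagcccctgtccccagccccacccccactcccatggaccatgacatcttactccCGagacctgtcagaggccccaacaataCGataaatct
Egfr, chr11:16837801-16838000: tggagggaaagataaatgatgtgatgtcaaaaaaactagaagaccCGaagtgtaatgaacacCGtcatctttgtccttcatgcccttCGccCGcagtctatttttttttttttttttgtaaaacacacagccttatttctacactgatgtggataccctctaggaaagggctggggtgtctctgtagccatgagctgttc
Plxna2, chr1:194733601-194733800: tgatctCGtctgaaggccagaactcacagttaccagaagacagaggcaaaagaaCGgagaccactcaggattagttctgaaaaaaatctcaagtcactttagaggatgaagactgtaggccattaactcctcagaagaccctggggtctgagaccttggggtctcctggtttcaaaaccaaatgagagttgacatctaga
Ptdss1, chr13:66940801-66941000: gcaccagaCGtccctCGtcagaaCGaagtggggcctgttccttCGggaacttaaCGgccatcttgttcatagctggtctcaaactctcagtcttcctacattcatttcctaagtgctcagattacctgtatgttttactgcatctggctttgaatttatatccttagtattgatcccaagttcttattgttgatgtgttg
Schip1, chr3:68525201-68525400: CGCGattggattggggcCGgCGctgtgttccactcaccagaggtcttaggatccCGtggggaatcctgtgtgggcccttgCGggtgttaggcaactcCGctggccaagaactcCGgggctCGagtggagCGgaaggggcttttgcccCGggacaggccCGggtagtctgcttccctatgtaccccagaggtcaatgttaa

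These intronic windows differed in CpG. Those in Egfr, Plxna2 and Ptdss1 held 4, 2 and 5 CpG in 200 bp, at GC contents of 42.0, 45.5 and 43.5%, whereas those in Gm20388 and Schip1 held 10 and 12, at 59.5 and 62% GC. Each window was picked for its CpG, so these numbers lie above those of the whole members. The second set is from members over coding exons that were picked for the highest GC content or the most coding bases. They are thus not typical of coding members. They lay in Agap2, a GTPase-activating protein for ARF GTPases, Nkpd1, which encodes a predicted NTPase, and Zfp648, a zinc finger protein.
Agap2, chr10:127091201-127091400: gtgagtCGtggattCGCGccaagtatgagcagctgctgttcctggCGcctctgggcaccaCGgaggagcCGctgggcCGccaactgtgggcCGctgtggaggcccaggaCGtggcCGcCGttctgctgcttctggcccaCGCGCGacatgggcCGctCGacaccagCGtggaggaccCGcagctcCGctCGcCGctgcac
Nkpd1, chr7:19524001-19524200: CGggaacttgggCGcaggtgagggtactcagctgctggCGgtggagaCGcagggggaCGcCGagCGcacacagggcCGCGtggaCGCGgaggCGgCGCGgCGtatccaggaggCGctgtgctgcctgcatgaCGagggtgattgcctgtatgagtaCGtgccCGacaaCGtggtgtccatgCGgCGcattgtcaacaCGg
Zfp648, chr1:154204801-154205000: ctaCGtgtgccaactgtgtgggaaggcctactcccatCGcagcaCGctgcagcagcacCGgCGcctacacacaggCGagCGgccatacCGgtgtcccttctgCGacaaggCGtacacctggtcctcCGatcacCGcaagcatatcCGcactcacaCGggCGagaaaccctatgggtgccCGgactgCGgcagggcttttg

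All 200 bases of each of these windows were coding, and they held 21, 23 and 17 CpG, at GC contents of 70.5, 67.5 and 63.5%. The window of a member in Mfap3, also picked for its coding bases and not printed, was wholly coding too. It held 6 CpG at 53.5% GC. The last set comes from the members with the largest share of soft-masked bases, the lower-case bases that a reference genome marks as repeats. They lay in introns of Gtsf1, a factor of the piRNA pathway, Kcnq5, a potassium channel, and Pop1, a subunit of RNase P.
Gtsf1, chr15:103411801-103412000: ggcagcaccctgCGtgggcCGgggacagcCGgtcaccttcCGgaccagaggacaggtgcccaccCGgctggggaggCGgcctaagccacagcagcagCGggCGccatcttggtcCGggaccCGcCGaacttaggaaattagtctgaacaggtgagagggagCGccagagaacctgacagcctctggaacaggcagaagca
Kcnq5, chr1:21626801-21627000: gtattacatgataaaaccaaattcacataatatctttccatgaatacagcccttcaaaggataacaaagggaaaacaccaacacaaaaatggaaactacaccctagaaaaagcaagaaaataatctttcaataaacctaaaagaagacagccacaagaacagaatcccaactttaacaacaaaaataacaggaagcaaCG
Pop1, chr15:34521601-34521800: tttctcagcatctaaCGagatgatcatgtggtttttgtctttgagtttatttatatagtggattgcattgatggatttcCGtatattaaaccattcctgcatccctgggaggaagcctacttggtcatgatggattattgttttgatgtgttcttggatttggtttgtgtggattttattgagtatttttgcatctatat

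All 200 bases of these windows were soft-masked. The Gtsf1 window held 12 CpG at 66.0% GC, whereas the Kcnq5 and Pop1 windows held 1 and 2 CpG at 33.0 and 35.0% GC. Reads from repeats can map to several places, and the peak lists do not show how such reads were counted.

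The libraries differed in how their peaks were cut. On chromosomes 1 to 19 there were 53039 and 53852 peaks in shCTR replicates 1 and 2, with a median width of 2400 bp in both. shPHF8 replicate 1 stood apart with 44205 peaks of a median width of 4200 bp, and shPHF8 replicate 2 had 55344 peaks of 2800 bp. Peaks covered 156 and 159 Mb in the shCTR libraries against 219 and 197 Mb in the shPHF8 libraries. Inside whole gene bodies, with bases near start sites included, they covered 68.6 and 70.6 Mb against 88.4 and 79.1 Mb. The lost regions therefore stood against a larger covered length in PHF8-depleted cells, in gene bodies as elsewhere.

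The lost regions made up 6.01% of the 25393 merged regions in gene bodies, and 11.4% of the 13350 that had a peak in both shCTR libraries. A further 2053 of these 13350 had a peak in 1 shPHF8 library only, 644 in replicate 1 and 1409 in replicate 2, and 9772 had one in both. The opposite pattern, a peak in both shPHF8 libraries and in neither shCTR library, was found at 981 gene-body regions, called gained. The ratio of lost to gained regions was 1.55 in gene bodies and 1.17 over all merged regions, and lost regions outnumbered gained ones in gene bodies of 19 of 19 chromosomes. This ratio turned below 1 in 3 other settings. It was 0.660 without shPHF8 replicate 1, 0.663 where a library had to cover at least 50% of a merged region, and 0.984 where each library kept an equal number of its widest peaks. The number of members rested on every library. It was 3930 and 3510 without shCTR replicate 1 or 2, where a peak in the other was enough, and 2292 and 2996 without shPHF8 replicate 1 or 2. The part of the wider shPHF8 peaks in these values was not tested.

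The members were narrow. Their median width was 2600 bp, with a range from 200 to 10200 bp, against 4200 bp for gained regions and 5200 bp for gene-body regions with a peak in all 4 libraries. A wide merged region has more bases at which a shPHF8 peak can fall, so the narrow widths follow in part from the way members were chosen. Both shCTR libraries covered a median of 2000 bp of a member. Replicate 1 covered more bases at 672 members, replicate 2 at 721, and both covered the same number at 132. The bases covered by both at once were a median of 61.5% of a member's width (95% interval of the median 60.0 to 62.5, n = 1525), and 55 members had the same edges in both libraries. In 5 members the peaks of the shCTR libraries touched the same merged region without a base in common.

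The nearest shPHF8 peak lay a median of 8200 bp from a member, 83 members had one within 1 kb and 363 within 3 kb. Over 5 kb on either side, peaks covered 9.40 and 9.16% of bases in the shCTR libraries against 6.80 and 6.42% in the shPHF8 libraries. Over 20 kb the values were 13.4 and 13.7% against 12.6 and 11.1%. Both shPHF8 libraries were lower over this span, but it includes the 5 kb next to the member. In 1 kb bins from 10 to 20 kb from the centres, only shPHF8 replicate 2 stayed below both shCTR libraries throughout. shPHF8 replicate 1 reached the shCTR libraries there, so lower coverage in both shPHF8 libraries was not shown at that distance. Over 50 kb the values were 12.9 and 13.2% against 13.2 and 11.6%, and the groups overlapped. The choice of members itself lowers the shPHF8 coverage beside them, since a shPHF8 peak that touched the region would have removed it.

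**Figure D1:**
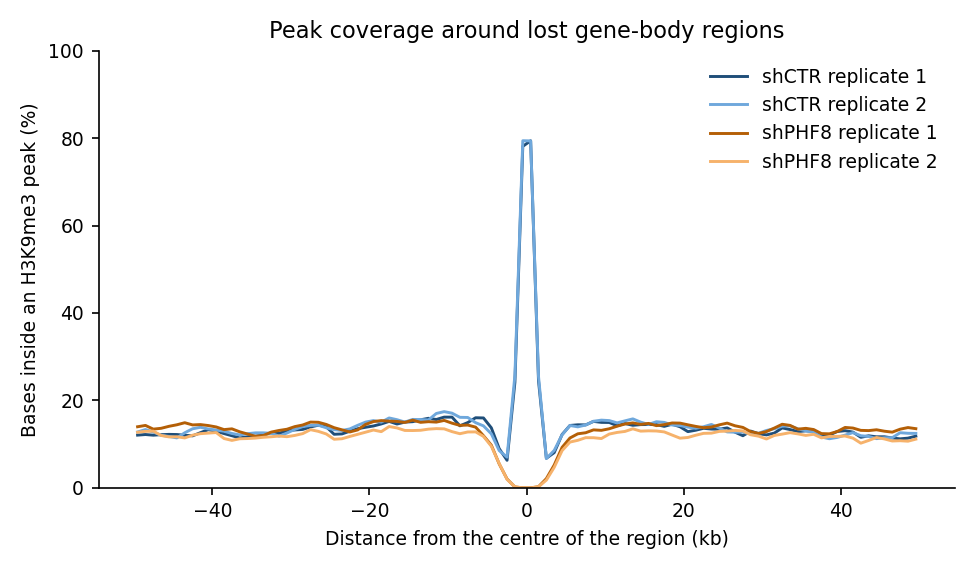
Share of bases inside an H3K9me3 peak (y axis, %) in 1 kb bins up to 50 kb on either side of the centres of the 1525 lost gene-body regions (x axis, kb), with 1 line per library. The shCTR lines rise to about 79.4% at the centre, where the choice of members fixes the shPHF8 lines at 0. From 10 to 20 kb on either side, the line of shPHF8 replicate 2 is still below both shCTR lines, whereas that of shPHF8 replicate 1 reaches them within this span.

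Members came next to each other more often than lost regions occurred overall. Along the chromosomes, 10.6% of the merged regions next to a member were themselves lost regions, in genes or outside, against 5.00% of all merged regions and 5.99% of the neighbours of gene-body regions with a peak in all 4 libraries. Gained regions made up 2.07% of the members' neighbours against 4.29% of all merged regions. Most members nevertheless stood alone, with 1276 single members, 107 pairs, 9 runs of 3 and 2 runs of 4 with no other merged region between them.

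The 10 widest members are named here by 1 host gene each, 9 genes in all with Gm20388 counted once. The widest was over a coding exon of Vac14, a scaffold protein for the kinase that makes phosphatidylinositol 3,5-bisphosphate (chr8:110651001-110661200, 10200 bp). Its whole width was covered in shCTR replicate 1 and 3800 bp of it in replicate 2. The member in an Egfr intron (chr11:16835201-16843800) had 7000 bp covered in each shCTR library, 5400 bp of them shared, and 5000 bp separated it from the nearest shPHF8 peak. The others were in Ctnnal1 (8200 bp), an alpha-catenin relative, Schip1 (8000 bp, shared with the overlapping gene Iqschfp), E130114P18Rik (7800 bp), Prdm11 (7400 bp), Tnc (7400 bp), which encodes tenascin C of the extracellular matrix, and Gfm1 (7000 bp, shared with Lxn), a mitochondrial elongation factor. Gm20388 held 2 of the 10, of 8600 and 7800 bp. Of these 10, those in Vac14 and E130114P18Rik differed most in extent between the shCTR libraries, with 7800 and 3000 bp covered in the latter.

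The members with the most bases covered in both shCTR libraries were tighter. In Plxna2 (chr1:194732601-194738800) replicate 1 covered 5200 bp and replicate 2 6200 bp, in an intron 64000 bp away from the nearest shPHF8 peak. In Ptdss1 (chr13:66938001-66943800) they covered 5000 and 5800 bp, 6800 bp from a shPHF8 peak. A member over the 3' end of Calcrl, a receptor subunit for calcitonin gene-related peptide, had 4800 and 6800 bp covered. However, most of its width lay beyond the gene, 80.4% of its bases were soft-masked and a shPHF8 peak lay 400 bp away. The distance limit of 3 kb was crossed closely by members in Lrrc58 and Zfp648, at 3011 and 3013 bp from a start site, and missed closely by regions in Vcl and Abr, at 2997 and 2994 bp.

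Where the lost regions sat within genes differed from the other gene-body regions. Of the members, 1151 (75.5%, 95% Wilson interval 73.3 to 77.6) overlapped no exon, 316 (20.7%, 18.8 to 22.8) overlapped a coding exon, 30 a UTR only and 28 another exon only. Coding exons were overlapped by 30.6% (27.8 to 33.5) of gained regions and by 34.4% (33.5 to 35.3) of gene-body regions with a peak in all 4 libraries. Wider regions meet exons more often, so the shares were also taken over regions of 2000 to 3400 bp. There they were 21.5% (18.8 to 24.4, n = 811) for lost, 26% (21.2 to 31.4, n = 281) for gained and 31.1% (29.1 to 33.3, n = 1870) for regions found in all 4 libraries. At equal width, the intervals of lost and gained regions thus overlapped, and those of lost regions and regions found in all 4 libraries did not. Coding bases were 2.07% of all bases in lost regions, 3.04% in gained regions, 2.64% in regions found in all 4 libraries and 2.72% in all gene-body DNA beyond the 3 kb limit. Over all widths, the coding share of lost regions was below that of regions found in all 4 libraries on 19 of 19 chromosomes, and below that of gained regions on 17. These counts by chromosome were not taken at equal width. Coding shares and CpG densities over all widths were lowest in lost regions under all 18 alternative settings, including those without 1 library. At 2000 to 3400 bp the coding share was lowest in lost regions in the 17 settings where it was available. Without shPHF8 replicate 1, the coding shares over all widths were 21.3% of lost, 24.7% of gained and 30.4% of shared regions. At 2000 to 3400 bp they were closer, at 22.0, 24.8 and 27.6%. The intervals cover counting error over regions only, and regions are not replicates of a condition.

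Along the gene, the midpoints of lost regions fell somewhat more often toward the start. The shares in the first, middle and last of 3 equal parts of the gene were 35.9, 33.6 and 30.4% for lost regions, 30.0, 32.7 and 37.3% for gained regions, and 31.8, 33.2 and 35% for regions found in all 4 libraries. The intervals of lost and gained regions did not overlap in the first part (33.6 to 38.4 against 27.2 to 32.9%) or in the last (28.2 to 32.8 against 34.3 to 40.4%). The order was thus reversed between lost and gained regions, with the middle part alike in all sets. Midpoints beyond an end of the gene were counted in its first or last part. Wholly inside a gene lay 1486 of 1525 lost, 928 of 981 gained and 9038 of 9772 all-4-library regions. The positions were not compared at equal width or under the alternative settings, and the part of regions that reach past a gene was not tested.

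**Figure D2:**
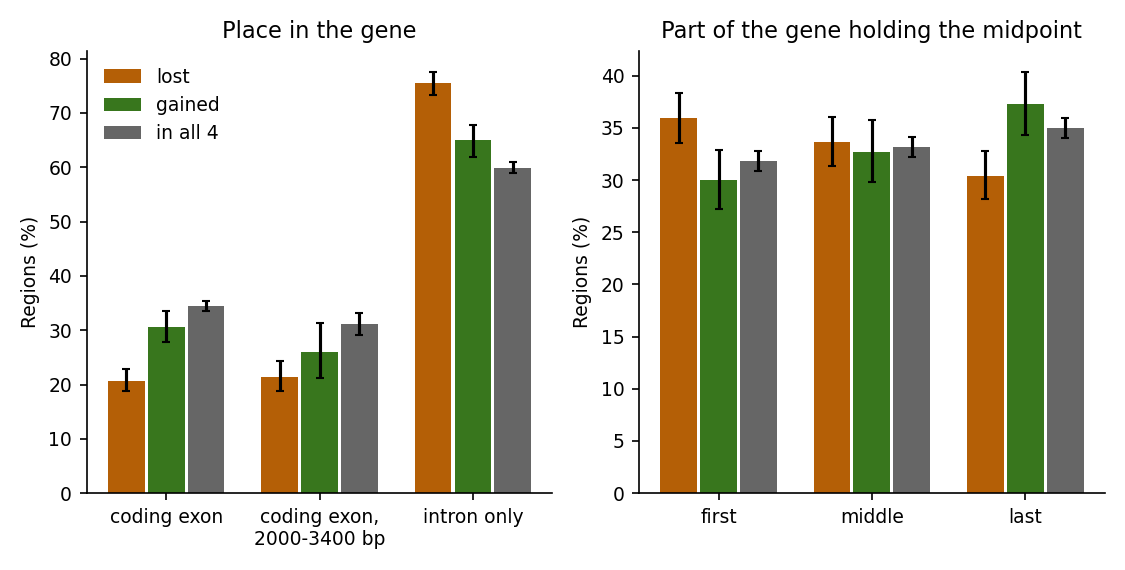
Left, share of regions (y axis, %) that overlap a coding exon, over all widths and over widths of 2000 to 3400 bp, or lie in introns only, for lost, gained and all-4-library gene-body regions. Right, share of the same regions with their midpoint in the first, middle or last of 3 equal parts of the gene. Bars start at 0 and error bars are 95% Wilson intervals over regions. Lost regions have the lowest coding share (20.7%) and the highest share in the first part (35.9%).

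Lost regions were also slightly poorer in GC and in CpG than gained regions and regions found in all 4 libraries. The median GC content was 44.1% (95% interval 43.8 to 44.4) in lost regions, 45.1% (44.9 to 45.4) in gained regions and 45% (44.9 to 45.1) in regions found in all 4 libraries. The median number of CpG per kb was 9.23 (8.89 to 9.55), 11 (10.6 to 11.4) and 10.4 (10.3 to 10.5). Over all bases of each set the GC content was 44.4, 45.3 and 45.2%, and that of gene-body DNA beyond the 3 kb limit was 42.6%. CpG per kb over all bases was 10.2, 11.4 and 11.1, and 8.95 in that gene-body DNA, so lost regions lay above it. At widths of 2000 to 3400 bp the median GC content was 44.15% (43.74 to 44.54) in lost regions. It was 44.77% (44.47 to 45.04) in regions found in all 4 libraries, and these intervals overlapped. At widths of 2000 to 3400 bp the median CpG per kb was 9.33 (8.93 to 9.69) in lost, 10.9 (10.0 to 11.6) in gained and 9.70 (9.55 to 10.0) in regions found in all 4 libraries, so that lost regions and those found in all 4 libraries no longer had separate intervals. The median CpG of lost regions was below that of gained regions on 19 of 19 chromosomes.

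Repeats took a smaller share of the lost regions. The median soft-masked share was 22.6% (22.0 to 23.5) in lost, 23.9% (22.8 to 25.1) in gained and 25.1% (24.8 to 25.4) in regions found in all 4 libraries. The lost and gained intervals overlapped. Over all bases the shares were 25.6, 27.8 and 27.7%, against 27.9% of gene-body DNA beyond the 3 kb limit. Most members were thus not repeat copies, since the tenth with the most repeats began at a soft-masked share of 48.6%. Single members stood out, such as those in Kcnq5 (99.2%), Pop1 (98.7%), Terf1 (97.9%), which encodes a telomere-binding protein, and Zfp808 (97.1%). In Kcnq5 a shPHF8 peak lay 800 bp away, and in Terf1 the nearest was 62600 bp away. The member in Gtsf1 was a single 200 bp window, fully soft-masked, covered in both shCTR libraries and 117800 bp from a shPHF8 peak.

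The members over coding exons included a small group rich in CpG. In Prr7, a synaptic membrane protein, a member of 800 bp held 87.5 CpG per kb at a GC content of 65.8%, with 600 and 800 bp covered in shCTR replicates 1 and 2. The member in Nkpd1 (chr7:19522401-19524800) had 70.8 CpG per kb and 1802 coding bases in 2400 bp, with 2400 and 1800 bp covered. In Agap2 (chr10:127090201-127092600) there were 50.4 CpG per kb and 2200 bp covered in each library. In Zfp648 there were 39.5 CpG per kb and 1471 coding bases in 2200 bp. The most coding bases, 1829, were in a member of 3200 bp in Sall3, a zinc finger transcription factor of development (chr18:80972801-80976000), with 2600 and 2400 bp covered. The other members with the most coding bases were in Hspa12b, an atypical HSP70 protein, Trim8, a ubiquitin ligase, and Mfap3, with 1118, 1083 and 1047 coding bases. That in Mfap3 held 11.3 CpG per kb, fewer than the 28.9 and 26.9 in Hspa12b and Trim8. Each of these members was covered over at least 1800 bp in each shCTR library with the exception of those in Prr7 and Zfp648. Among members in introns, GC content was highest in Gtsf1 and then in Ptprs, a receptor phosphatase of neurons, where it was 60.0% with 1400 and 1200 bp covered.

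The lost regions were spread over many genes. They overlapped 1164 protein-coding genes, 5.59% of the 20807 on chromosomes 1 to 19. Of these host genes, 933 held 1 member, 231 held 2 or more and 18 held 5 or more. A gained region lay in the body of 165 hosts (14.2%), compared with 3.75% of all genes, and a region found in all 4 libraries in 797 (68.5%), compared with 21.2% of all genes. No other gene-body region of these kinds was in 353 hosts. Both comparisons are with genes of all lengths, and host genes were long, with a median of 114 kb against 17.6 kb for all protein-coding genes.

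The number of hosts followed gene length. A lost region was found in 0.206% of genes under 10 kb, 1.93% of genes of 10 to 30 kb, 7.77% of 30 to 100 kb, 22.6% of 100 to 300 kb and 42.5% of genes of 300 kb or more. Per Mb of gene body beyond the 3 kb limit, the densities were far more even, at 1.36, 1.51, 1.82, 2.06 and 1.52 members. Gained regions had 1.18, 0.975, 1.03, 1.22 and 1.11 per Mb in the same classes. Regions found in all 4 libraries had 9.14, 10.7, 11.6, 13.8 and 8.73 per Mb. The density was thus highest at 100 to 300 kb in lost, gained and all-4-library regions alike. The order of lost against gained densities follows the ratio above, which was 0.660 without shPHF8 replicate 1. That order was not computed by class for that setting.

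**Figure D3:**
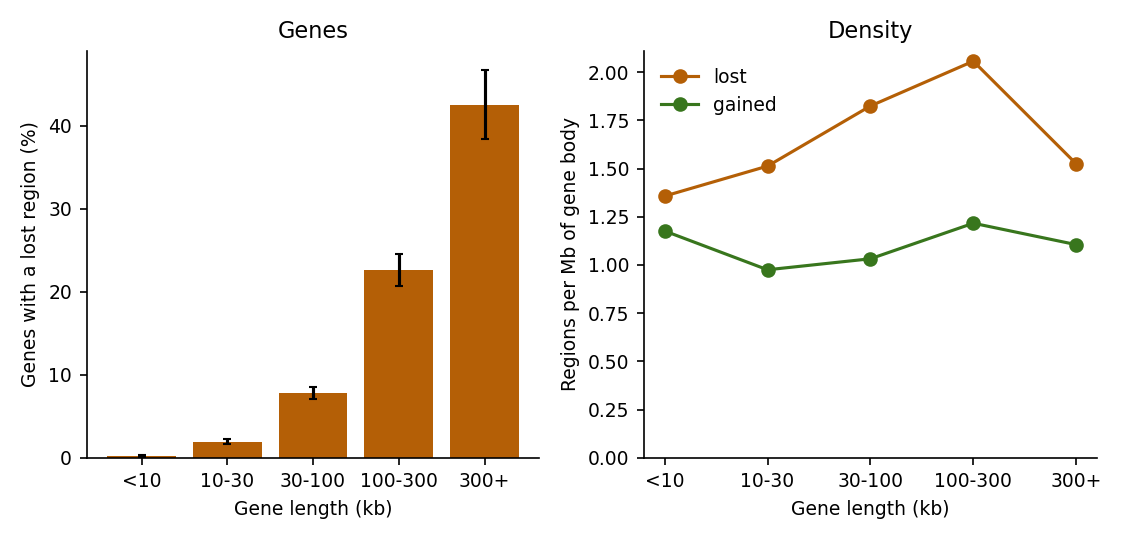
Left, share of protein-coding genes with a lost gene-body region (y axis, %) by gene length (x axis, kb), with 95% Wilson intervals over genes. Right, lost and gained gene-body regions per Mb of gene body beyond the 3 kb limit, for the same classes. The share of genes rises from 0.206 to 42.5%, and the density of lost regions stays between 1.36 and 2.06 per Mb.

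Npas3, a transcription factor with a PAS domain that is active in the developing brain, spans 823 kb on chromosome 12. It held 11 members, all of them intronic, 0 gained regions and 14 found in all 4 libraries. With the gene cut into 4 equal parts in the direction of transcription, there were in the first part 7 and 8 shCTR peaks, which covered 14.4 and 15 kb, and 0 in both shPHF8 libraries. In the second part 6 and 5 shCTR peaks stood against 1 in each shPHF8 library. In the third part 15 and 14 shCTR peaks covered 51 and 57.2 kb, against 5 and 7 peaks over 27.6 and 32.2 kb in the shPHF8 libraries. The last part was covered over 110.6 and 102.6 kb in the shCTR libraries and 110.4 and 91.4 kb in the shPHF8 libraries, and held 1 member. The first 3 parts held 4, 3 and 3 members, whose bases the choice fixes at 0 in the shPHF8 libraries. Outside the 11 members, peaks of the whole gene covered 174 and 166 kb against 144.8 and 130.2 kb.

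Sorcs1, a sorting receptor of the sortilin family, held 8 members, all in introns, of which 5 were in the second of its 4 parts. There peaks covered 34.8 and 33.6 kb in the shCTR libraries and 10.8 and 12.8 kb in the shPHF8 libraries. These values include the members, as does the whole-gene coverage of 82.8 and 77.4 kb against 34.0 and 41.8 kb. Outside the members, peaks covered 60.8 and 53.4 kb against 34.0 and 41.8 kb. Of the 10247 protein-coding genes with a peak, 12.8% had fewer covered bases over the whole gene in both shPHF8 libraries than in both shCTR libraries and 27.8% had more.

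**Figure D4:**
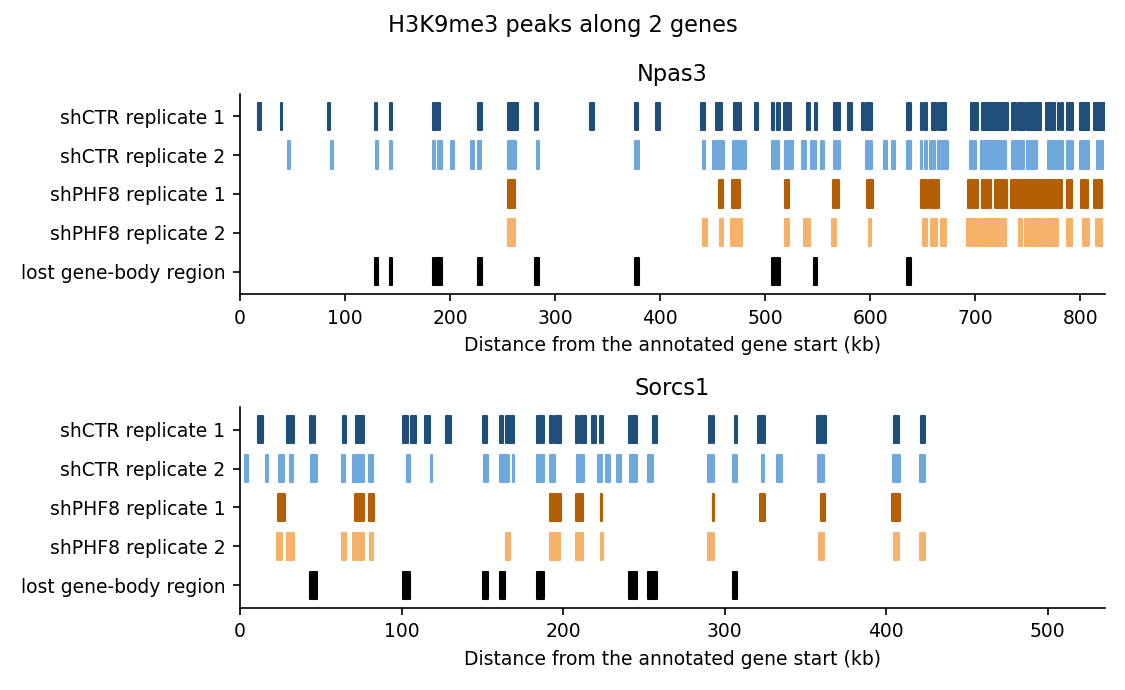
H3K9me3 peaks of each library along Npas3 and Sorcs1 (x axis, distance from the annotated gene start in kb, in the direction of transcription), drawn to scale, with the lost gene-body regions in black. Of the 8 lost regions of Sorcs1, 5 lie in the second of 4 equal parts of the gene, and the first part of Npas3 has peaks in the shCTR libraries and 0 in the shPHF8 libraries.

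Gm20388 and Fgfr2 held 12 and 8 members. Their annotated models span 4435 and 2961 kb and take in many other genes, so their numbers say little about a single transcription unit. Per Mb they held 3.1 and 3.0 members, against 13.5 in Npas3 and 15 in Sorcs1. Of the genes with 7 members, Kcnd3, the potassium channel Kv4.3, was the shortest at 222 kb and had 33.0 per Mb. Maml2, a coactivator of Notch, and Auts2, a gene linked to neurodevelopmental disorders, had 17.9 and 6.57 per Mb. Vav3, a guanine nucleotide exchange factor, and Sox5, a transcription factor of neural development, held 6 each.

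The rest of each host gene was then examined, leaving out the members' own bases. Of all protein-coding genes with a peak outside members, 9.32% had fewer covered bases in both shPHF8 libraries than in both shCTR libraries, and 29.3% had more. Among the 1024 hosts with such a peak, 172 (16.8%, 95% Wilson interval 14.6 to 19.2) had fewer and 307 (30.0%) had more. Among hosts of at least 100 kb the shares were 15.9% and 36.8%, and among all genes of that length 8.65% and 42.3%. Most hosts therefore showed no lower coverage outside the members, but the share that did was above that of all genes. With shPHF8 replicate 2 alone against both shCTR libraries, the shares with fewer were 32.3% of hosts and 20.6% of all genes. The shares with more were 40.5% of hosts and 44.8% of all genes. The members were chosen on the same contrast, so this is a description of these lists.

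Among the 18 hosts with 5 or more members, 10 had fewer covered bases outside the members in both shPHF8 libraries, 2 had more and 6 overlapped. In Tnik, a kinase of Wnt signalling with 5 members, peaks outside the members covered 51.2 and 54.0 kb in the shCTR libraries against 33.6 and 38.0 kb in the shPHF8 libraries. In Cdh20, a cadherin with 5 members, the values were 13 and 21.4 kb against 6.40 and 6.00 kb. Fgfr2 and Dock2, an exchange factor for Rac, were the genes with more. In Dock2 peaks outside the members covered 74.9 and 60.2 kb in the shCTR libraries against 85.4 and 88.9 kb. Genes with many lost regions therefore did not all move in one direction outside them.

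**Figure D5:**
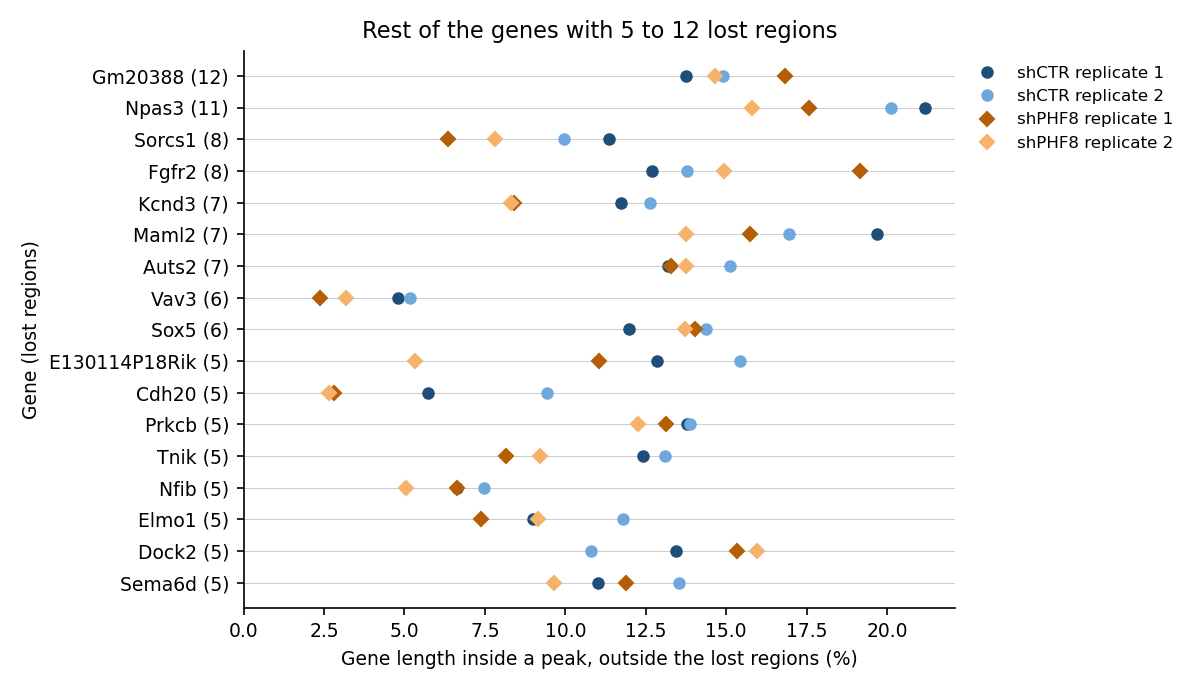
Share of gene length inside an H3K9me3 peak after the lost regions are left out (x axis, %) for the 17 genes with 5 to 12 lost regions, with the number of lost regions in parentheses. Circles are shCTR and diamonds shPHF8 libraries. In 9 genes, among them Npas3, Sorcs1 and Kcnd3, both diamonds lie below both circles, and in Fgfr2 and Dock2 they lie above.

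Gene groups were compared by their number of hosts and by members per Mb of gene body, with 1.76 per Mb over all protein-coding genes. Members were counted in every gene they overlap. Among 39 transcription factors of neural development, 10 were hosts, with 20 members or 3.77 per Mb, and 2 held a gained region. This list also held 95 regions found in all 4 libraries over 5.30 Mb, against 10088 over 901 Mb in all protein-coding genes. Sox5 had 6 of the 20 members and Nfib, needed for cortical development, had 5. Tcf4, a partner of proneural factors, had 2, and Zeb1, a repressor of epithelial genes, had 1. The widest, in an Nfib intron, had 3400 and 6000 bp covered in shCTR replicates 1 and 2. Of 40 genes of developmental signalling, 11 were hosts with 19 members (2.78 per Mb), 8 of them in the long Fgfr2 model. These genes held 116 regions found in all 4 libraries over 6.84 Mb. The hosts included Egfr, Bmpr1a, a BMP receptor, and Insr, the insulin receptor. Of 40 axon guidance ligands and receptors, 10 were hosts, at 1.66 per Mb, close to the value of all genes. They included Plxna2 with 2 members, Slit3 with 3, Sema6d with 5 and Robo2 with 1.

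Enzymes of amino acid and one-carbon metabolism include those of serine synthesis, on which the study is centred. This list had 6 hosts among 40 genes with 7 members, or 6.28 members per Mb over 1.12 Mb. This density rests on few regions. The list also held 17 regions found in all 4 libraries and 0 gained regions. All protein-coding genes held 10088 and 1000 of these over 901 Mb, so few gained regions would be met in so short a length. Gldc, the glycine decarboxylase of the glycine cleavage system, held 2, and the wider one (chr19:30111801-30114600) was covered over all of its 2800 bp in each shCTR library and overlapped a coding exon. Bcat1, a branched-chain aminotransferase, had 1 of 4600 bp with 3000 and 2600 bp covered. Aldh1l1, which oxidises formyl-tetrahydrofolate, and Mthfd1l, a mitochondrial formate-producing enzyme, had 1 each. Mthfd1, a trifunctional folate enzyme named after its values were seen, was also a host. None of Phgdh, Psat1 and Psph, which make serine from a glycolytic intermediate, was a host. The paper reports unchanged H3K9me3 at the promoters of the serine genes, which lie outside the gene-body regions described here.

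Among 40 histone lysine methyltransferases, demethylases and readers, 5 were hosts, with 6 members (2.69 per Mb) and 0 gained regions. This list held 15 regions found in all 4 libraries over 2.23 Mb. The hosts included Nsd2, which methylates lysine 36 of histone H3, Eed and Ezh2, subunits of the Polycomb complex PRC2, and Ehmt1, a methyltransferase for lysine 9. The member in Eed had 2800 and 4000 bp covered in the shCTR libraries and overlapped a coding exon, and that in Ezh2 had 1200 and 1000 bp covered.

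Families taken by their names gave a mixed picture. Receptor protein tyrosine phosphatases had 10 hosts among 21 genes, but these genes are long and their density was 1.57 per Mb. Voltage-gated calcium channels had 8 hosts among 25 (2.82 per Mb), cadherins 7 among 23 (2.19 per Mb, with 13 members and 19 gained regions), ADAMTS proteases 6 among 24 (2.60 per Mb) and potassium channels 10 among 92 (1.93 per Mb). Collagens had 7 among 43 (1.72 per Mb), glutamate receptors 5 among 26 (0.896 per Mb), axonemal dynein heavy chains 3 among 15 (0.913 per Mb) and kinesins 2 among 38 (0.742 per Mb). Zinc finger genes named Zfp, whose exons often carry H3K9me3, had 11 hosts among 385 (1.28 per Mb), and 130 of the 385 held a region found in all 4 libraries. Solute carriers had 19 hosts among 358 (1.27 per Mb), genes named Tmem 8 among 235 (1.41 per Mb) and olfactory receptors 1 among 1128. Protocadherins had 23 hosts among 67 genes, but these overlap in clusters and the count rests on 5 distinct regions on 2 chromosomes. Densities from so few regions move with single members, and no group was tested.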

How the data were processed

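The authors deposited 1 peak list per ChIP library, whose values are positions only (chromosome, start and end), with no height, count or p-value. The paper names SOAP2 for alignment to mm10 and SICER2 for broad peaks, and the submitters' processing notes list Bowtie2 2.3.5.1, SAMtools 1.9 and deepTools without a role. The window, gap and threshold of the peak calls, and the use of the input, are not given in the sources used here. The peak lists hold no depth, so whether a missing peak is a missing signal cannot be told from them. The paper's appendix does list read counts per library. Among the ChIP libraries used here, shPHF8 replicate 2 had the fewest raw, mapped and uniquely mapped reads there. The part of this lower depth in the missing shPHF8 peaks was not tested.

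Starts were read as 0-based and ends as inclusive, overlapping or touching peaks of the 4 libraries were merged, and genes and start sites (of protein-coding transcripts) were taken from GENCODE M21. GC, CpG and soft-masked bases came from RefSeq GRCm38.p6. Python 3.11.15 with numpy 2.4.6 was used, and the classes were checked on simulated peaks against bedtools 2.31.1. Genes and regions named are the 10 widest members, the 5 genes with the most members, the 6 members with most bases in both shCTR libraries, up to 4 hosts per gene list, those nearest the 3 kb limit, and those with the highest GC content, soft-masked share and coding bases. Other genes with 5 or more members were named after their values were seen. Some genes and a gene list that these rules select are not reported here. The members and gene lists were chosen with earlier results of these data known, so none is independent support. Of 18 alternatives, 17 were planned, and the removal of genes over 2 Mb was added after the data were seen.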

Additional observations from a re-analysis of the deposited data

How the results depend on the processing

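Of 126 values from 18 alternatives, 91 stayed near the reported one (within 1.5 times for counts, within the 95% interval for shares, medians and the ratio), 32 moved and 3 reversed. The reversed value was the ratio of lost to gained regions, which was 0.663 with at least 50% of a region covered, 0.984 with an equal number of widest peaks and 0.660 without shPHF8 replicate 1. Over the lists without 1 library it ran from 0.660 to 2.10 (without shCTR replicate 1), and it was 1.43 with peaks within 5 kb merged, 1.33 with peaks of at least 1000 bp and 15.97 when each library kept its widest peaks until they covered the same length. The cause was not tested.

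Merging within 5 kb left 883 lost regions in 758 genes, with 23.9% over coding exons, 43.5% GC and 24.5% soft-masked bases. The same covered length gave 4614 regions in 2834 genes, by construction from fewer shPHF8 peaks, with 23.8%, 44.5% and 25.1%. The equal number of peaks gave 24.2% over coding exons, 21.4% soft-masked bases and a median width of 3000 bp. Start sites of all genes lowered the coding share to 17.9%. Without 1 library each, where presence rests on fewer libraries, the regions ranged from 2292 (without shPHF8 replicate 1) to 3930 (without shCTR replicate 1), the genes from 1609 to 2409, the coding share from 16.98 to 21.3%, GC from 44.2 to 44.8%, the soft-masked share from 22.4 to 24.2% and the width from 1800 to 2600 bp.

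No paired analysis was possible because the results are counts and medians of merged regions, with no test to block. The lists carry no read depth, so a peak just under the authors' threshold is counted as absent.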

Other observations

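Chromosomes X and Y were outside the regions described. With the same rules they held 9 lost, 2 gained and 16 gene-body regions found in all 4 libraries, too few to describe further.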
